A study of Mus musculus with 10 samples.

Results

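The RNAs of both partners of one co-culture were compared: primary keratinocytes that had been cultured with CD8+ T cells, and the CD8+ T cells that had been cultured with keratinocytes. The members were chosen by the labels of the samples and comprised 4 of 10 libraries in the series, 2 for each partner, and the 22055 of 25814 listed genes for which an exon length above 0 was given. The keratinocytes came from tails of adult mice and were maintained in serum-free keratinocyte medium with low calcium. The T cells came from spleen, were enriched with CD8 microbeads and pre-activated with Abs against CD3 and CD28 (1 d). They were then added to the keratinocytes, washed off at the end and lysed apart from them, so that every library of this comparison had seen the co-culture and activated T cells. The co-culture lasted 1 d according to the sample labels, whereas the design text of the series gives 1 h. The same text speaks of 2 parallel experiments, and nothing says that the libraries of one partner came from separate animals. Therefore, p-values measure the spread between these libraries only, which may be technical. Keratinocytes cultured alone (2 libraries) and T cells that were activated for 1 d and kept for 1 d in keratinocyte medium without keratinocytes (2 libraries) served for the question of which differences between the partners moved upon co-culture. The keratinocyte libraries carry the numbers 1 and 2 in their labels. The labels of the co-cultured T cells carry none, and these libraries are called a and b here, letters that pair with nothing.

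Keratinocytes form the epithelium of the epidermis and act as sentinels of the skin. Through membrane receptors they sense cytokines of lymphocytes, and they answer with chemokines, small proteins that guide leukocytes through seven-pass receptors. CD8+ T cells recognize peptides on MHC class I molecules, kill by granzymes, perforin and FAS ligand, and secrete IFN-γ. IFN-γ binds IFNGR1 and IFNGR2, activates the JAK/STAT pathway and induces guanylate binding proteins, MHC genes and the chemokines CXCL9 and CXCL10, which are ligands of CXCR3 on activated T cells.

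Between 12864931 and 15149509 exon reads were counted in the 4 libraries, and between 9041 and 10311 genes reached 1 RPKM (exon reads scaled to exon length and to mapped reads). For a gene with 1 kb of exons, 3 reads equal 0.182 to 0.212 RPKM in these libraries. This is taken as the smallest level that differs from 0, and it covers counting error only. The libraries of a partner were no repeats of one library, since their counts differed by a mean chi-square per degree of freedom of 199 (keratinocytes) and 108 (T cells).

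Both partners carried the markers of their labels. Krt14, a keratin of basal keratinocytes, was at 7926 and 11836 RPKM in the keratinocyte libraries and at 61.6 and 16.8 RPKM in the T-cell libraries (log2 fold change 7.91, SE 1.09, adjusted p = 0.0153). Cd8a, the α chain of the CD8 co-receptor, was at 0.525 and 1.16 RPKM in keratinocytes and at 312 and 209 RPKM in T cells (log2 fold change -8.36, SE 0.74, adjusted p = 0.00882). The groups did not overlap for either gene. Here and in the following, log2 fold changes are those of co-cultured keratinocytes over co-cultured T cells with n = 2 libraries each, so that a negative value stands for a higher level in T cells, and adjusted p-values come from edgeR's quasi-likelihood test with Benjamini-Hochberg adjustment. An exact permutation test of 2 against 2 libraries cannot give a two-sided p below 0.333, and none was run for single genes. Of 13 keratinocyte markers tested, 11 were higher in keratinocytes and 0 in T cells (0 at an unadjusted p under 0.05, 0 by DESeq2), beside 11.1% and 2.82% of all genes tested. Of 11 markers of CD8+ T cells tested, only Cd8a and Cd8b1, the chains of the CD8 co-receptor, were higher in T cells (4 at an unadjusted p under 0.05, 6 by DESeq2) and none in keratinocytes (0 at an unadjusted p under 0.05 and 0 by DESeq2).

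The other T-cell markers were also found in keratinocyte libraries. Cd3d, a chain of the CD3 complex of the T-cell receptor, was at 19.0 RPKM in keratinocyte library 1 and 115 RPKM in library 2, beside 371 and 349 RPKM in T cells (log2 fold change -2.49, adjusted p = 0.131, but called by DESeq2 and without a filter). Its log2 fold change was -4.51 without keratinocyte library 2 and -1.71 without library 1. The 9 T-cell markers other than Cd8a and Cd8b1 reached 5.28 to 12.8% of the mean level of co-cultured T cells in keratinocyte library 1 and 32.0 to 75.5% in library 2, which held 4.58 to 6.05 times more of each of them. Cd4, the co-receptor of helper T cells, was at 15.0 and 84.5 RPKM in the keratinocyte libraries and at 64.6 and 62.0 RPKM in the T-cell libraries, and Hbb-bs, a globin of red cells, at 41.6 and 185 RPKM beside 149 and 154 RPKM. Library 2 of the keratinocytes thus held more RNA of these markers than library 1. They were also present without co-culture, since keratinocytes alone showed 18.1 and 67.1 RPKM of Cd3d and 11.4 and 43.5 RPKM of Cd4, while Cd8a stayed at 0.118 and 0.600 RPKM there. The γδ T-cell markers Trdc and Trdv4 have no exon length in the tables and were not measured. Of the lists for further cell types, myeloid, B-cell, NK, melanocyte, fibroblast and endothelial markers summed to 0.470 to 68.9 RPKM in each keratinocyte library and to 0.365 to 54.5 RPKM in each T-cell library. Of 2 NK markers tested, Klra4 was higher in keratinocytes (log2 fold change 5.34), and so was 1 of 6 myeloid markers. By edgeR no marker of these lists was higher in T cells. The 4 melanocyte markers tested had positive and the 3 B-cell markers negative log2 fold changes, none of which passed the test. Fibroblast and endothelial markers went both ways. In bulk RNA, fewer cells of a type and less RNA per cell cannot be told apart, and the part of this RNA in the comparisons below was not tested. Values without 1 keratinocyte library are given as effect sizes only, since the spread between keratinocyte libraries is then not measured.

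**Figure D1:**
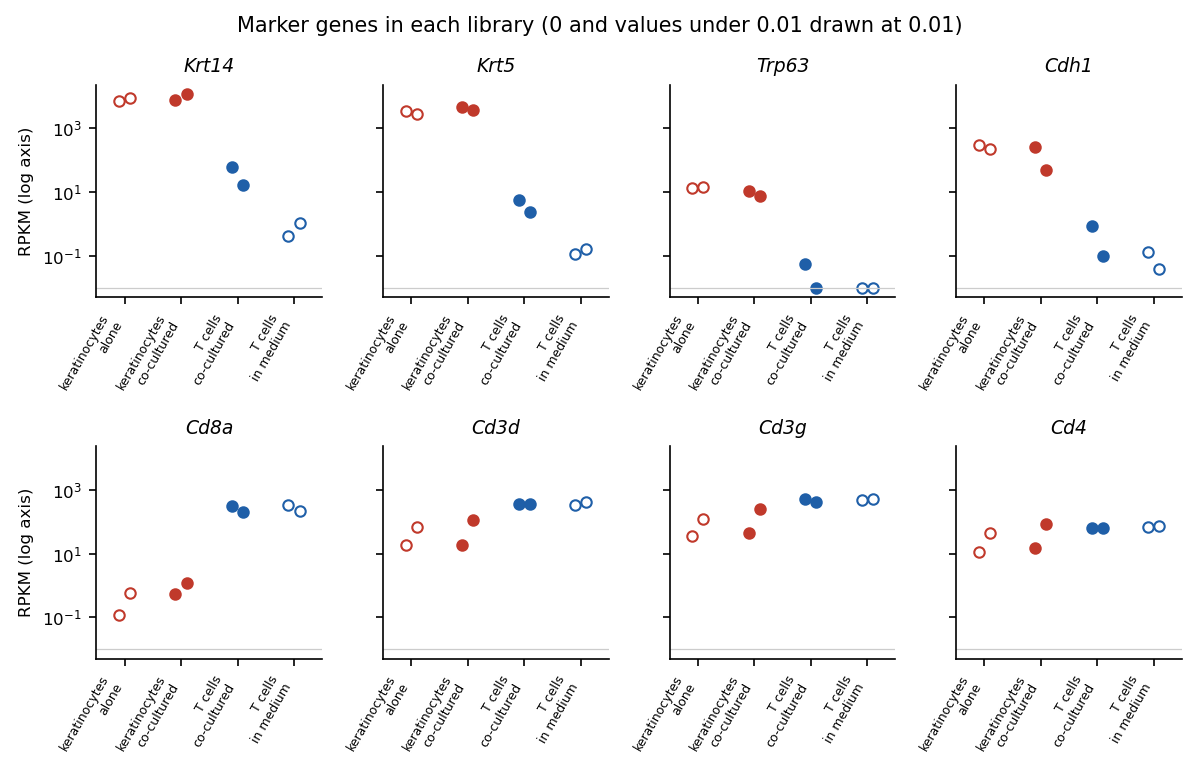
RPKM (log axis) of 8 marker genes in each library of 4 groups, open circles for cells cultured apart and filled circles for the co-culture, 1 point per library. Krt14, Krt5, Trp63 and Cdh1 were high in keratinocytes and Cd8a in T cells, whereas Cd3d, Cd3g and Cd4 reached between 15.0 and 247 RPKM in the co-cultured keratinocyte libraries as well.

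Between the partners, 1381 of 12432 genes tested were higher in co-cultured keratinocytes (11.1%) and 350 in co-cultured T cells (2.82%), with a median log2 fold change of 0.07 over all genes tested. These shares are the background for the counts of every list below. Scaling to library size instead of TMM moved this median to 0.19, and the fold changes given here are relative to that centre. The counts moved when 1 library was left out. Such a fit has 1 group without a measured spread, so that dependence on a particular library was not tested. Where the higher partner averaged at least 50 RPKM, 3 of the 10 largest differences in favour of keratinocytes had 0 reads in both T-cell libraries. Wnt4, a secreted WNT ligand, was at 57.4 and 48.4 RPKM in keratinocytes and therefore at least 1085-fold higher than the level of 3 reads in T cells. Lipg, a secreted lipase, was at 81.4 and 30.0 RPKM (at least 1032-fold higher), and Cavin1, a coat protein of caveolae, at 92.9 and 15.3 RPKM (at least 924-fold higher). The others were Prss23, Col17a1, Krt8, Prl2c3, Cav1, Efemp1 and Slc1a1, among them the hemidesmosomal collagen XVII, keratin 8 and caveolin 1. In T cells the largest differences were those of Cd8b1, Cd8a, Klrd1, Lce3f, Gzmb, Ncf1, Dapl1, AC160962.1, Ly6c2 and Ms4a4c. Gzmb encodes the protease granzyme B, Ncf1 a subunit of the NADPH oxidase and Ly6c2 the surface antigen LY6C, whereas Lce3f encodes a protein of the cornified layer of the epidermis. Of the reads counted for Prl2c3, Slc1a1, Ncf1 and AC160962.1, 28.5, 15.3, 34.8 and 0.977% were assigned uniquely, so that the values of these genes are uncertain.

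**Figure D2:**
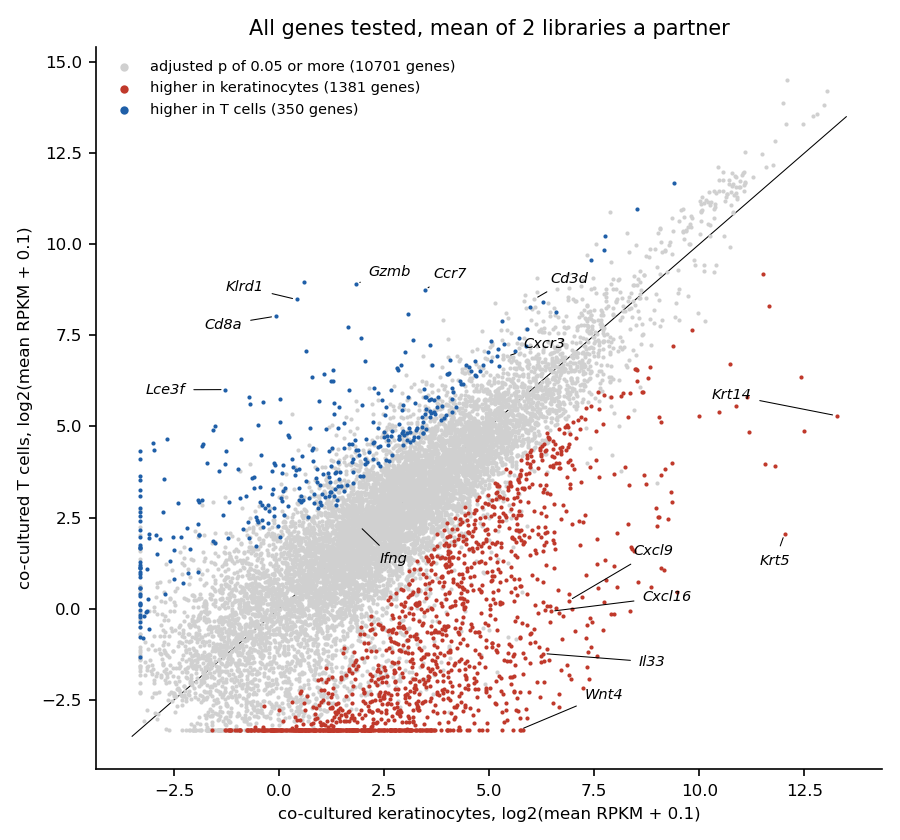
Mean RPKM of the 2 libraries of each partner for 12432 genes tested, on log2 axes after adding 0.1, red for the 1381 genes higher in keratinocytes, blue for the 350 genes higher in T cells and grey for all others. Points on the lower or left edge had 0 RPKM in one partner, and the line marks equal levels.

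Lineage transcription factors that passed the test were epithelial factors in keratinocytes and lymphoid factors in T cells. Of 22 tested, 8 were higher in keratinocytes, 4 in T cells (36.4 and 18.2%) and 10 in neither, with a median log2 fold change of -0.68. Trp63, the master regulator of stratified epithelia, was at 10.6 and 7.46 RPKM in keratinocytes and at 0.0548 and 0 RPKM in T cells (adjusted p = 0.0140). Klf4, Klf5, Grhl1, Grhl3, Tfap2a and Tfap2c, factors of epidermal differentiation, were also higher in keratinocytes. Foxn1, which acts in keratinocytes of skin and thymus, was at 7.16 and 1.49 RPKM in keratinocytes and had 0 reads in T cells (at least 68.0-fold higher). In T cells, Satb1, a chromatin organizer of T lymphocytes, was at 17.9 and 10.4 RPKM compared to 0.298 and 0.515 RPKM in keratinocytes (log2 fold change -5.21, SE 0.56, adjusted p = 0.0104). The remaining factors higher in T cells were Lef1, Ikzf1 and Bach2, with 0.0296 to 8.03 RPKM in the keratinocyte libraries.

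Chemokines that bind receptors of T cells were transcribed in keratinocytes. Of 27 chemokine genes measured, 17 passed the filter on low counts, 4 of these were higher in keratinocytes and 1 in T cells (median log2 fold change 1.81). Cxcl9 was at 175 and 62.5 RPKM in keratinocytes and at 1.27 and 0.856 RPKM in T cells (log2 fold change 6.61, SE 0.65, adjusted p = 0.00984). Cxcl16, a membrane-bound chemokine and the ligand of CXCR6, was at 94.4 and 81.5 RPKM compared to 1.02 and 0.681 RPKM (log2 fold change 6.54, SE 0.43, adjusted p = 0.00794), and both keratinocyte libraries were far above both T-cell libraries for either chemokine. In the deposited GRCm38 coordinates Cxcl9 lies at chr5:92321347-92328079 and Cxcl16 at chr11:70453983-70459984, both on the minus strand. Cxcl1, a chemokine for neutrophils, was at 18.0 and 8.97 RPKM compared to 0.138 and 0.0742 RPKM (log2 fold change 6.70, SE 0.88, adjusted p = 0.0141). Cxcl12, the ligand of CXCR4, was also higher in keratinocytes but low, with 0.505 and 0.821 RPKM. Cxcl10 was at 10.5 and 12.7 RPKM in keratinocytes and at 2.98 RPKM in both T-cell libraries, and the groups did not overlap, but the difference did not pass edgeR's test (log2 fold change 1.82, SE 0.53, adjusted p = 0.0791), whereas it did so by DESeq2 and by limma on log2 RPKM values after addition of 0.1 or 1 (log2 fold changes 1.82, 1.92 and 1.66). Ccl22, a ligand of CCR4, was the chemokine higher in T cells, with 2.07 and 1.75 RPKM and 0 reads in keratinocytes (at least 22.4-fold higher). Ccl5, a product of activated T cells, amounted to 53.5 and 287 RPKM in keratinocytes and to 256 and 281 RPKM in T cells. It thus differed 5.36 times between the keratinocyte libraries, similar to the T-cell markers, and the difference between the partners did not pass the test (log2 fold change -0.73, SE 0.83, adjusted p = 0.592). The log2 fold change of Ccl5 was -2.61 without keratinocyte library 2 and 0.0213 without library 1. Ccl3 and Ccl4 did not pass the test either, Cxcl5 and Ccl2 stayed at 4.09 RPKM or below in every library, and Cxcl11 and Ccl20 did not pass the filter.

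Of 16 chemokine receptors tested, 14 had a negative log2 fold change, but only Ccr7 was higher in T cells (6.25%, beside 2.82% of all genes tested) and only Cxcr2 in keratinocytes (6.25%, beside 11.1%). The median log2 fold change was -1.09. Ccr7, which guides T cells into lymph nodes, was at 4.06 and 17.8 RPKM in keratinocytes and at 319 and 538 RPKM in T cells (log2 fold change -5.40, SE 0.99, adjusted p = 0.0279). Cxcr3, the receptor of CXCL9 and CXCL10, was at 130 and 112 RPKM in T cells and at 14.8 and 70.4 RPKM in keratinocytes (log2 fold change -1.57, SE 0.80, adjusted p = 0.239). Every T-cell library was above every keratinocyte library, but keratinocyte library 2 held 4.75 times more Cxcr3 RNA than library 1. The log2 fold change was -3.30 without library 2 and -0.84 without library 1, with 1 keratinocyte library left in each case. Cxcr6, the receptor of CXCL16, was at 41.4 and 64.5 RPKM in T cells and at 8.86 and 51.7 RPKM in keratinocytes, so that its groups overlapped. Cxcr2, the receptor of CXCL1, had 0 reads in T cells and 0.712 and 0.676 RPKM in keratinocytes (at least 10.3-fold higher).

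Interferon transcripts were low in both partners, whereas the chains of their receptors were found in both. Ifng was at 3.26 and 6.20 RPKM in co-cultured T cells and at 1.36 and 5.92 RPKM in co-cultured keratinocytes (log2 fold change -0.49, SE 0.97, adjusted p = 0.773). In T cells that had only been activated (2 further libraries) it was at 613 and 589 RPKM. Summed over the 4 interferon genes of the pairs, T cells in keratinocyte medium without keratinocytes held 5.95 and 7.20 RPKM. Co-cultured T cells held 3.26 and 6.20 RPKM by this sum. The low level was thus also found without keratinocytes, and its cause was not tested. Apart from Ifng, the other 3 interferon genes of the pairs did not pass the filter on low counts. Ifngr1, the ligand-binding chain of the IFN-γ receptor, was at 24.0 and 55.3 RPKM in keratinocytes and at 169 and 160 RPKM in T cells (log2 fold change -2.15, SE 0.57, adjusted p = 0.0625). The call of Ifngr1 depended on the method, since it was higher in T cells by DESeq2, by both limma fits, with all 10 libraries in the fit and without a filter (log2 fold changes -2.17 to -2.08). Its log2 fold change was -3.05 without keratinocyte library 2 and -1.63 without library 1. Ifngr2, the signalling chain, was at 10.3 and 7.14 RPKM in keratinocytes and at 9.89 and 10.5 RPKM in T cells, and its groups overlapped (log2 fold change -0.40, SE 0.38, adjusted p = 0.514). Ifnar2, a chain of the type I interferon receptor, was the member that passed the test, with 9.09 and 7.16 RPKM in keratinocytes and 32.0 and 24.1 RPKM in T cells (log2 fold change -1.94, SE 0.34, adjusted p = 0.0260). Only 45.6% of its reads were assigned uniquely, and with unique reads the adjusted p was 0.0515.

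Interleukin genes that passed the test were higher in keratinocytes. Of 16 ligands tested, 6 were higher in keratinocytes (37.5%) and 0 in T cells (1 at an unadjusted p under 0.05, 1 by DESeq2), with a median log2 fold change of 3.33. Il33, an alarmin of the IL-1 family, was at 68.9 and 86.1 RPKM in keratinocytes and at 0.432 and 0.220 RPKM in T cells (log2 fold change 7.76, SE 0.56, adjusted p = 0.00794). Tslp, an epithelial cytokine of type 2 responses, was at 68.8 and 267 RPKM compared to 0.348 and 1.12 RPKM (log2 fold change 7.71, SE 1.15, adjusted p = 0.0183). Both were far above the T-cell level in each keratinocyte library, although Tslp varied widely. Il24, a cytokine of the IL-10 family, was at 12.5 and 15.4 RPKM compared to 0.189 and 0 RPKM (log2 fold change 6.99, SE 1.14, adjusted p = 0.0215), and Il1a, another alarmin, at 56.5 and 16.3 RPKM compared to 0.998 and 0.143 RPKM (log2 fold change 5.82, SE 1.04, adjusted p = 0.0266). Lif, a cytokine that signals through gp130, and Il7, a survival factor of T cells, were the other 2, and Il7 was at 1.47 and 1.94 RPKM in keratinocytes.

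Most receptors of interleukins did not pass the test. Of 31 tested, 4 were higher in keratinocytes (12.9%, beside 11.1% of all genes tested), 3 in T cells (9.68%, beside 2.82%) and 24 in neither, with a median log2 fold change of -0.71. Il17rc, a chain of the IL-17 receptor, was at 92.3 and 58.0 RPKM in keratinocytes and at 0.581 and 0.0298 RPKM in T cells (log2 fold change 7.80, SE 1.09, adjusted p = 0.0161). Its partner chain Il17ra went the other way, with 2.73 and 5.32 RPKM in keratinocytes and 19.9 and 14.5 RPKM in T cells (log2 fold change -2.19, SE 0.51, adjusted p = 0.0465). Likewise, Il13ra1, a chain of the receptor for IL-13 and IL-4, was at 16.7 and 21.9 RPKM in keratinocytes and at 0.265 and 0 RPKM in T cells (log2 fold change 7.07, SE 1.25, adjusted p = 0.0261), whereas Il4ra, the chain that it pairs with, was at 10.9 and 13.1 RPKM compared to 46.6 and 30.2 RPKM (log2 fold change -1.79, SE 0.39, adjusted p = 0.0412). The chains of a single receptor were thus unequal between the partners, but both chains reached 2.73 RPKM or more in keratinocytes. Il1rl2, the receptor of IL-36 cytokines, was higher in keratinocytes (log2 fold change 4.78, SE 0.54, adjusted p = 0.0109), and so was Osmr, a chain of the receptors for oncostatin M and IL-31, with 0 reads in T cells (at least 52.7-fold higher). Il12rb2, the inducible chain of the IL-12 receptor, was at 23.5 and 17.5 RPKM in T cells and at 0.0520 and 0 RPKM in keratinocytes (log2 fold change -9.71, SE 0.93, adjusted p = 0.00939). The receptor chains for IL-2 and IL-7, cytokines that T cells need for growth and survival, did not pass the test. Il7r was at 71.6 and 81.9 RPKM in T cells and at 6.78 and 39.0 RPKM in keratinocytes (adjusted p = 0.221), with the gap between the keratinocyte libraries that T-cell markers showed.

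In the TNF family 4 receptors were higher in keratinocytes and 1 in T cells out of 14 tested, and no ligand passed the test. Of 11 ligands tested, 0 were higher in keratinocytes or in T cells by edgeR (1 and 2 at an unadjusted p under 0.05, 1 and 1 by DESeq2). Tnf itself was at 27.2 and 3.77 RPKM in keratinocytes and at 0.200 and 1.47 RPKM in T cells (log2 fold change 3.90, SE 1.33, adjusted p = 0.111), without overlap of the groups, and it was called by DESeq2 and without a filter (log2 fold changes 3.87 and 3.92). Without keratinocyte library 2, which leaves 1 keratinocyte library, the log2 fold change of Tnf was 4.69. Tnfrsf1a, the broadly expressed TNF receptor, was higher in keratinocytes, with 67.9 and 57.7 RPKM compared to 21.3 and 18.1 RPKM (log2 fold change 1.52, SE 0.33, adjusted p = 0.0403). Tnfrsf1b, the TNF receptor of lymphocytes, was at 5.57 and 27.7 RPKM in keratinocytes and at 39.3 and 40.1 RPKM in T cells (log2 fold change -1.33, SE 0.81, adjusted p = 0.317). Without keratinocyte library 2, which leaves 1 keratinocyte library, the log2 fold change of Tnfrsf1b was -3.11. Further receptors higher in keratinocytes were Ltbr, the receptor of lymphotoxin β (log2 fold change 6.22, SE 0.49, adjusted p = 0.00839), Tnfrsf12a, the receptor of TWEAK (log2 fold change 4.23, SE 0.82, adjusted p = 0.0324), and Tnfrsf10b, a death receptor for TRAIL (log2 fold change 4.09, SE 0.88, adjusted p = 0.0403). The death receptor Fas was higher in T cells, with 21.4 and 17.8 RPKM compared to 3.62 and 5.05 RPKM in keratinocytes (log2 fold change -2.30, SE 0.46, adjusted p = 0.0349). Its ligand Fasl was at 3.15 and 3.47 RPKM in T cells and 0.645 and 0.970 RPKM in keratinocytes (adjusted p = 0.111).

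Genes of the killing machinery that passed the test were higher in T cells. Of 15 cytotoxic effector genes tested, 3 were higher in T cells (20.0%) and 0 in keratinocytes (2 at an unadjusted p under 0.05, 2 by DESeq2), with a median log2 fold change of -2.08. Gzmb was at 391 and 574 RPKM in T cells and at 1.79 and 5.11 RPKM in keratinocytes (log2 fold change -7.24, SE 0.86, adjusted p = 0.0119). Gzma, a second granzyme, was at 10.3 and 87.6 RPKM in T cells and at 0.131 and 0.904 RPKM in keratinocytes (log2 fold change -6.71, SE 1.54, adjusted p = 0.0455), so that the T-cell libraries differed widely for this gene. Ctsw, a protease of cytotoxic granules, was also higher in T cells (log2 fold change -3.76, SE 0.89, adjusted p = 0.0494), whereas Prf1, the pore protein perforin, was at 5.59 and 2.68 RPKM in T cells and at 0.637 and 2.56 RPKM in keratinocytes. Of 24 genes of the death pathway, 3 were higher in keratinocytes (12.5%, beside 11.1% of all genes tested), 2 in T cells (8.33%, beside 2.82%) and 19 in neither. The survival gene Bcl2l1 was at 59.6 and 41.1 RPKM in keratinocytes and at 8.80 and 7.81 RPKM in T cells (log2 fold change 2.43, SE 0.35, adjusted p = 0.0173). Its relative Bcl2 was at 0.395 and 0.722 RPKM in keratinocytes and at 11.9 and 7.83 RPKM in T cells (log2 fold change -4.24, SE 0.55, adjusted p = 0.0139), so that these inhibitors of apoptosis showed opposite patterns. Serpinb6a, an inhibitor of serine proteases, was higher in keratinocytes as well.

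In co-stimulation and recognition, the receptors that passed the test were higher in T cells. Of 16 ligands tested, 2 were higher in keratinocytes and 1 in T cells (12.5 and 6.25%, beside 11.1 and 2.82% of all genes tested), and of 17 receptors 0 were higher in keratinocytes (1 at an unadjusted p under 0.05, 1 by DESeq2) and 4 in T cells (23.5%). The median log2 fold changes were -0.78 and -2.43. H60c, a ligand of the activating receptor NKG2D, was at 234 and 185 RPKM in keratinocytes and at 0.746 and 0.376 RPKM in T cells (log2 fold change 8.40, SE 0.55, adjusted p = 0.00794). Klrk1, which encodes NKG2D, was at 13.08 and 14.02 RPKM in T cells and at 0.0958 and 0.441 RPKM in keratinocytes (log2 fold change -5.73, SE 0.88, adjusted p = 0.0188), and neither gene overlapped between the partners. Nectin2, a ligand of DNAM-1 and TIGIT, was at 40.0 and 23.6 RPKM in keratinocytes and at 0.0953 and 0.0821 RPKM in T cells (log2 fold change 8.27, SE 0.53, adjusted p = 0.00794). Klrd1, the CD94 chain of NK receptors (log2 fold change -8.34, SE 1.00, adjusted p = 0.0120), and Cd160, a receptor of HVEM (log2 fold change -5.56, SE 0.64, adjusted p = 0.0114), were higher in T cells. Cd274, the gene of the checkpoint ligand PD-L1, was at 5.50 and 4.84 RPKM in keratinocytes and at 4.44 and 4.70 RPKM in T cells (log2 fold change 0.01, SE 0.42, adjusted p = 0.987), compared to 0.611 and 1.26 RPKM in keratinocytes alone. Pdcd1, the gene of its receptor PD-1, was at 36.6 and 58.9 RPKM in T cells and at 6.85 and 39.8 RPKM in keratinocytes, with overlap of the groups. The log2 fold change of Pdcd1 was -3.10 without keratinocyte library 2 and -0.36 without library 1.

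Adhesion ligands that passed the test were higher in keratinocytes. Of 15 ligands tested, 5 were higher in keratinocytes and 0 in T cells (1 at an unadjusted p under 0.05, 1 by DESeq2), and of 15 receptors 3 were higher in keratinocytes and 1 in T cells. Cdh1, E-cadherin of epithelial junctions and the ligand of the integrin CD103, was at 269 and 49.4 RPKM in keratinocytes and at 0.860 and 0.0957 RPKM in T cells (log2 fold change 8.20, SE 1.40, adjusted p = 0.0241). Itgae, which encodes the αE chain of CD103, was at 61.7 and 15.3 RPKM in T cells and at 0.632 and 5.17 RPKM in keratinocytes (adjusted p = 0.0980), so that the groups did not overlap while the call was not made. F11r (log2 fold change 6.98, SE 0.47, adjusted p = 0.00794) and Cxadr (log2 fold change 6.16, SE 0.52, adjusted p = 0.00859), junctional adhesion molecules, were higher in keratinocytes, and so were the matrix genes Lama3 and Thbs1. Thbs1, the gene of thrombospondin 1, was at 47.5 and 5.42 RPKM compared to 0.236 and 0 RPKM (log2 fold change 7.59, SE 1.71, adjusted p = 0.0446). Cd47, which encodes its receptor and is also a signal against phagocytosis, was at 60.4 and 51.3 RPKM in T cells and at 6.84 and 15.0 RPKM in keratinocytes (log2 fold change -2.46, SE 0.55, adjusted p = 0.0446). Plxnb2, a plexin for semaphorins (log2 fold change 6.56, SE 0.96, adjusted p = 0.0176), and the integrin chains Itga6 and Itgb4 of hemidesmosomes were higher in keratinocytes. Icam1, the ligand of the integrin LFA-1, was at 45.6 and 37.2 RPKM in keratinocytes and at 19.8 and 18.1 RPKM in T cells (log2 fold change 0.97, SE 0.33, adjusted p = 0.107, but called by both limma fits and with all 10 libraries in the fit), and the LFA-1 chains Itgal and Itgb2 did not pass the test. Keratinocyte library 2 was lower than library 1 in Cdh1 (49.4 compared to 269 RPKM), Itgb4, Plxnb2 and Thbs1, a difference within the group for which the labels name no reason.

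Growth factors showed the largest share of keratinocyte genes among the 7 families. Of 16 ligands tested, 10 were higher in keratinocytes (62.5%) and 0 in T cells (1 at an unadjusted p under 0.05, 0 by DESeq2), with a median log2 fold change of 4.94, or 4.60 when genes with 0 reads in one partner were set to their bound. Epgn, a ligand of the EGF receptor, was at 34.7 and 14.9 RPKM compared to 0.182 and 0.156 RPKM (log2 fold change 6.97, SE 0.67, adjusted p = 0.00939). Hbegf, another one, was at 33.8 and 8.38 RPKM compared to 0.747 and 1.13 RPKM (log2 fold change 4.24, SE 0.79, adjusted p = 0.0291), and Tgfa and Btc, which share this receptor, were higher in keratinocytes as well. Gas6, Nrg1, Jag2, Dll1, Pdgfa and Tgfb2 completed the list, ligands of TAM and ERBB receptors, of Notch, and of the receptors for PDGF and TGF-β. Of 13 receptors, 4 were higher in keratinocytes and 0 in T cells (0 at an unadjusted p under 0.05, 0 by DESeq2). Axl, a TAM receptor, was at 167 and 135 RPKM in keratinocytes and at 4.45 and 5.84 RPKM in T cells (log2 fold change 4.69, SE 0.46, adjusted p = 0.00979). Egfr, Met and Fgfr2, receptors of epithelial growth factors, were at 0.0594 RPKM or below in both T-cell libraries.

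Set side by side as 161 pairs of a ligand and a receptor, 158 of them measured, 2 pairs had the ligand higher in keratinocytes and the receptor higher in T cells. These were H60c with Klrk1 and Thbs1 with Cd47, and the call of Thbs1 was lost when counts were scaled to library size. The opposite direction, a ligand higher in T cells and its receptor higher in keratinocytes, was found for 0 pairs by edgeR (1 at an unadjusted p under 0.05, 1 by DESeq2). In 8 pairs both genes were higher in keratinocytes, namely Cxcl1 with Cxcr2, Lama3 with Itga6 and Itgb4, Hbegf, Tgfa, Btc and Epgn with Egfr, and Gas6 with Axl. For 0 pairs both genes were higher in T cells by edgeR (4 at an unadjusted p under 0.05, 0 by DESeq2). By level instead of difference, 57 pairs had a ligand of 1 RPKM or more in both keratinocyte libraries and a receptor of 1 RPKM or more in both T-cell libraries, and 33 pairs did so in the opposite direction. Of these, 16 pairs counted in both directions. Within a partner, 53 pairs had both genes at this level in keratinocytes and 41 in T cells. Cxcl9 and Cxcl10 with Cxcr3 and Cxcl16 with Cxcr6 belonged to the 57 pairs. Some ligands and receptors that reach 1 RPKM in keratinocyte libraries, such as Ccl5 and Cxcr3, varied between these libraries like the T-cell markers, and the part of T-cell RNA in these counts was not tested. Over all families, 27 of 92 ligands tested (29.3%) and 16 of 111 receptors (14.4%) were higher in keratinocytes, and 2 ligands (2.17%) and 11 receptors (9.91%) in T cells.

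**Figure D3:**
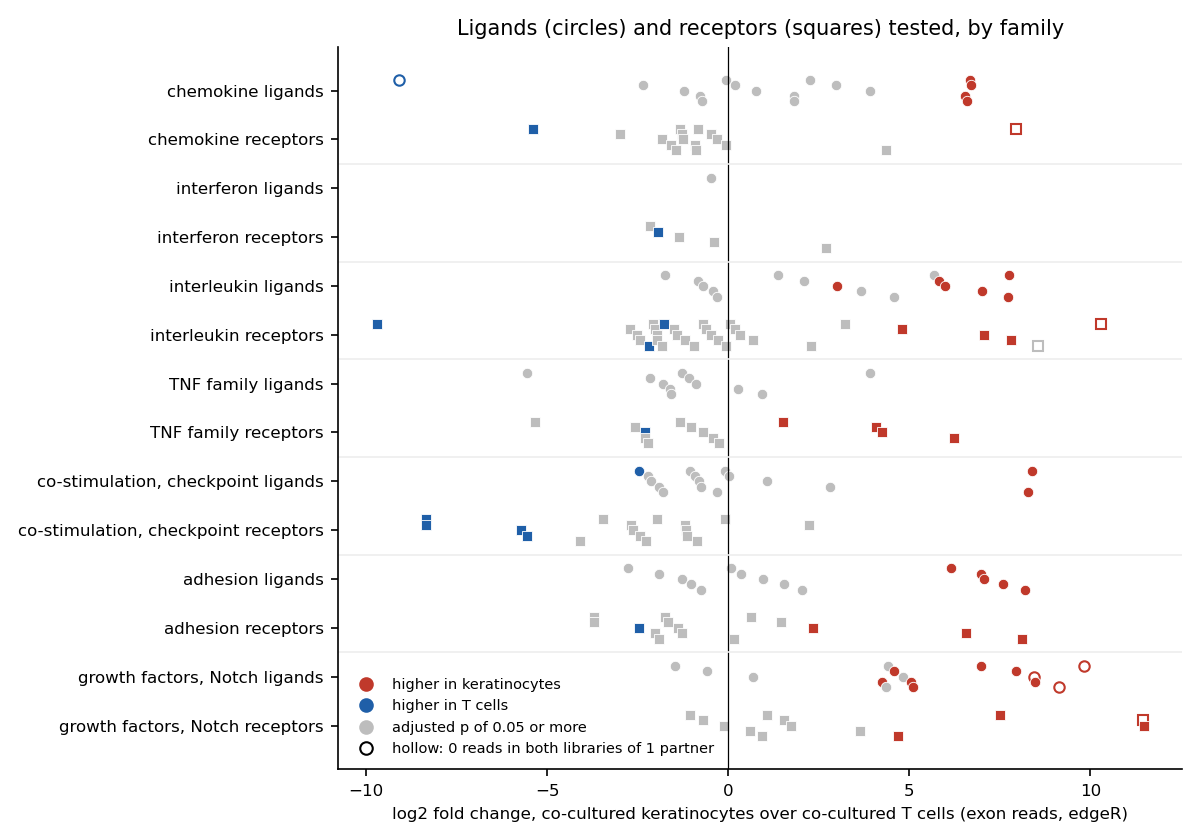
Log2 fold change of co-cultured keratinocytes over co-cultured T cells for the ligands (circles) and receptors (squares) tested in 7 families, red and blue where the adjusted p was under 0.05 and grey otherwise, with hollow symbols for genes with 0 reads in both libraries of 1 partner, whose fitted value is no measured fold. Most growth factor, interleukin and adhesion ligands lie to the right (14 of 16, 11 of 16 and 10 of 15). Il12rb2 and most receptors of co-stimulation (16 of 17) lie to the left.

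Genes of the interferon response were transcribed in both partners. The GTPases induced by IFN-γ, which act against intracellular pathogens, summed to 1487 and 738 RPKM in keratinocytes and to 1430 and 973 RPKM in T cells over the 19 genes measured, compared to 27.3 and 86.6 RPKM in keratinocytes alone and 1168 and 976 RPKM in T cells in medium. Of 18 tested, 1 was higher in keratinocytes and 6 in T cells (5.56 and 33.3%), with a median log2 fold change of -1.13. Gbp3 was the one higher in keratinocytes, at 147 and 55.1 RPKM compared to 18.1 and 10.6 RPKM in T cells (log2 fold change 2.63, SE 0.54, adjusted p = 0.0359). Gbp5, which promotes inflammasome assembly, was at 1.96 and 2.56 RPKM in keratinocytes and at 21.1 and 8.93 RPKM in T cells (log2 fold change -2.82, SE 0.54, adjusted p = 0.0310), so that neighbours of one family were distributed in opposite ways. Ifi47 was at 51.7 and 67.4 RPKM in keratinocytes and at 214 and 196 RPKM in T cells (log2 fold change -1.92, SE 0.41, adjusted p = 0.0399). The other GTPases higher in T cells were Gbp4, Gbp6, Gbp10 and Tgtp2. Since they share sequence with their relatives, only 15.4% of the reads of Gbp4, 0.283% of Gbp6, 10.3% of Gbp10, 0% of Tgtp2 and 2.83% of Ifi47 were assigned uniquely, and with unique reads 1 of 15 GTPases tested was higher in keratinocytes and 3 in T cells. Gbp2, the most abundant member, was at 579 and 203 RPKM in keratinocytes and at 237 and 67.8 RPKM in T cells, and its groups overlapped (log2 fold change 1.21, SE 0.72, adjusted p = 0.304).

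Among antiviral genes of the interferon response, 34 were tested, 3 were higher in keratinocytes and 1 in T cells (8.82 and 2.94%), with a median log2 fold change of 0.56. These shares were close to the 11.1 and 2.82% of all genes tested. Ifitm3, which blocks the entry of viruses, was at 470 and 198 RPKM in keratinocytes and at 2.91 and 3.34 RPKM in T cells (log2 fold change 6.53, SE 0.58, adjusted p = 0.00882), but it was at 90.7 and 106 RPKM in keratinocytes alone. Oasl2, a relative of the oligoadenylate synthetases, was at 24.5 and 6.92 RPKM compared to 0.407 and 0.614 RPKM (log2 fold change 4.70, SE 0.76, adjusted p = 0.0209), and Ifi44 at 4.79 and 2.44 RPKM compared to 0.0677 and 0 RPKM. Trim30a, a TRIM protein, was higher in T cells, with 36.8 and 25.1 RPKM compared to 1.08 and 4.00 RPKM in keratinocytes (log2 fold change -3.67, SE 0.77, adjusted p = 0.0384). Irf1, a transcription factor induced by IFN-γ, was at 58.3 and 62.3 RPKM in keratinocytes and at 70.5 and 44.5 RPKM in T cells (log2 fold change -0.05, SE 0.37, adjusted p = 0.939). Its level was 3.19 and 5.72 RPKM in keratinocytes alone. Irf8, a related factor of hematopoietic cells, was at 34.7 and 34.6 RPKM in T cells and at 3.24 and 5.91 RPKM in keratinocytes (log2 fold change -3.04, SE 0.50, adjusted p = 0.0227), and together with Ifnar2 it made up the 2 of 18 signalling genes that were higher in T cells.

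No gene of MHC class I presentation passed the test. Of 20 MHC class I genes tested, 0 were higher in keratinocytes and 0 in T cells by edgeR (0 and 7 at an unadjusted p under 0.05, 0 and 4 by DESeq2), with a median log2 fold change of -0.86 and 16 negative values. B2m, the light chain of class I molecules, was at 1287 and 1483 RPKM in keratinocytes and at 4207 and 4746 RPKM in T cells (log2 fold change -1.84, SE 0.52, adjusted p = 0.0721), without overlap of the groups. It was called by DESeq2, with all 10 libraries in the fit and without a filter (log2 fold changes -1.84 to -1.77). The log2 fold change of B2m was -2.08 without keratinocyte library 2 and -1.67 without library 1. Of 7 class II genes tested, H2-DMa, which edits the peptides of class II molecules, was higher in T cells, with 63.1 and 65.5 RPKM compared to 2.07 and 4.09 RPKM (log2 fold change -4.50, SE 0.57, adjusted p = 0.0135). Class II genes are also expressed by B cells, and the 5 B-cell markers measured summed to 0.531 and 3.85 RPKM in keratinocytes and to 16.6 and 27.3 RPKM in T cells. Of the 3 that were tested, none passed the test (median log2 fold change -2.83, 1 at an unadjusted p under 0.05 and 1 by DESeq2), Pax5 was at 0.0226 and 0.114 RPKM in T cells and 0 RPKM in keratinocytes, and their part in the difference of H2-DMa was not tested.

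**Figure D4:**
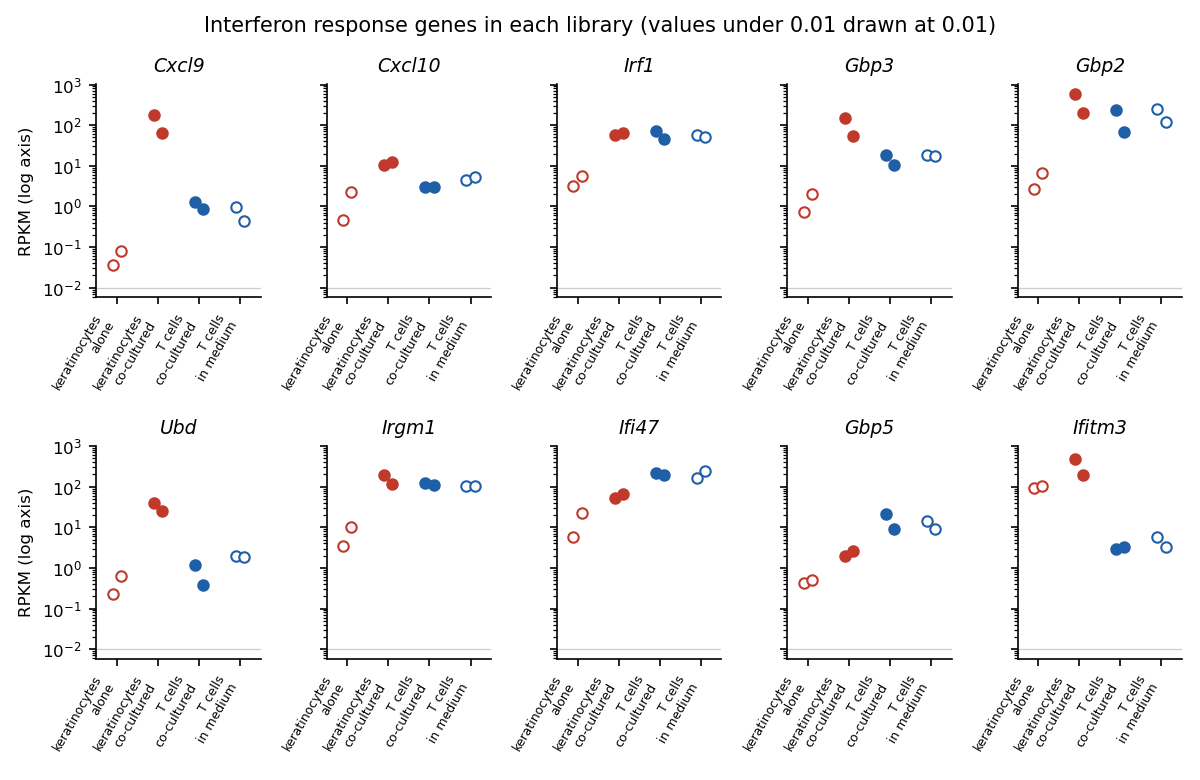
RPKM (log axis) of 10 interferon response genes in each library of 4 groups, open circles for cells cultured apart and filled circles for the co-culture, 1 point per library. Cxcl9, Irf1, Gbp3 and Ubd were higher in every co-cultured keratinocyte library than in keratinocytes alone, while Ifi47 and Gbp5 were at 51.7 and 67.4 and at 1.96 and 2.56 RPKM in co-cultured keratinocytes, below both T-cell groups.

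The promoters of genes from each pattern are shown, since interferon response genes are known to carry short binding sites near their start sites. Printed are the 250 bases upstream of the RefSeq start site on the coding strand (GRCm38.p6). Capitals mark matches to the core of the gamma-activated site (GAS, TTC and GAA with any 3 bases between them, bound by STAT dimers) or of the interferon-stimulated response element (ISRE, 2 GAAA boxes that are 2 bases apart). Both were searched on both strands from 250 bases upstream to 50 bases downstream of the start site, and overlapping matches were merged in print. Irf1 (chr11:53769764-53770013, plus strand) stands for a gene whose levels overlapped between the partners, Cxcl10 (chr5:92348890-92349139, minus strand) for chemokines, Gbp3 (chr3:142559794-142560043, plus strand) for a response gene higher in keratinocytes, and Trim30a (chr7:104465194-104465443, minus strand) for one higher in T cells:
Irf1: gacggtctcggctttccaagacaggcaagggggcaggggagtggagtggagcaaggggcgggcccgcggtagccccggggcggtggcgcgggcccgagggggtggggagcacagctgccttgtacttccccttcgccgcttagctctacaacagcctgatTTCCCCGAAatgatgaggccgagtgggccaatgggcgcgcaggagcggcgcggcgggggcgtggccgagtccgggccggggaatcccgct
Cxcl10: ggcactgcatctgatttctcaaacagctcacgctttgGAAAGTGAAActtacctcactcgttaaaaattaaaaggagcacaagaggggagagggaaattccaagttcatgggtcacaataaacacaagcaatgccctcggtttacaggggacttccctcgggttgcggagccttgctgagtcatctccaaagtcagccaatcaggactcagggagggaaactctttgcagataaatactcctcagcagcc
Gbp3: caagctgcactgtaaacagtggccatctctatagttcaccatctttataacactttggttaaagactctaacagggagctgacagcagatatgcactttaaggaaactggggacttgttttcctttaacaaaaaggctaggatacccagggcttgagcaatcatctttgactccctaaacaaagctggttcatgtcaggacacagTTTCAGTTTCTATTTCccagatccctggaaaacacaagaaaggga
Trim30a: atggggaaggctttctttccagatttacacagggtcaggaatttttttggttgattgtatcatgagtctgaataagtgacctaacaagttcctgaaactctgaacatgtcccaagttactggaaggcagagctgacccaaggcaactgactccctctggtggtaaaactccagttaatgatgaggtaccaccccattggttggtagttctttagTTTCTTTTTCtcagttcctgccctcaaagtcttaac
The GAS match of Irf1 begins 90 bases upstream of the start site, the ISRE match of Cxcl10 213 bases, those of Gbp3 45 and 39 bases and that of Trim30a 36 bases upstream. Of 16513 genes with such a window of upstream and downstream bases, 7.84% held a GAS match and 3.48% an ISRE match. Of 11 IFN-γ-induced GTPases with a window, 6 (54.5%) held a GAS and 10 (90.9%) an ISRE match. Of 26 antiviral genes, 5 (19.2%) held a GAS and 13 an ISRE match, and of 17 class I genes 2 (11.8%) and 4 (23.5%). The window of Cxcl9 held neither, which says only that these letters are not in it, and a match is no proof of binding.

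Other response lists held few differences. Of 15 NFκB response genes tested, 1 was higher in keratinocytes (6.67%, beside 11.1% of all genes tested), the chemokine Cxcl1, and 0 in T cells (3 at an unadjusted p under 0.05, 1 by DESeq2). Of 18 genes that T cells induce upon activation, 1 (5.56%) was higher in keratinocytes. This was Fos, a subunit of AP-1, with 51.4 and 28.3 RPKM compared to 1.93 and 2.78 RPKM in T cells (log2 fold change 3.87, SE 0.50, adjusted p = 0.0140). No gene of this list was higher in T cells by edgeR (1 at an unadjusted p under 0.05, 1 by DESeq2), and the list's median log2 fold change was 0.11.

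The difference between the partners was then compared with the difference between the same cells cultured apart, in one fit of 8 libraries. Keratinocytes alone may differ from co-cultured keratinocytes in medium as well, and effects of medium and of T cells on keratinocytes cannot be told apart here. In favour of keratinocytes it rose for 7 of 13202 genes (0.053%) and it fell for 69 (0.523%). The 7 were Cxcl9, Ubd, Gbp3, Il18bp, Phf11d, Xaf1 and Irf1, and for each of them both keratinocyte libraries of the co-culture exceeded both from keratinocytes without T cells, beside 19.4% of all genes tested. This order was largely fixed by the selection of the genes, and nothing is read from it. When cultured apart, keratinocytes had 0.0365 and 0.0813 RPKM of Cxcl9, and T cells in medium 0.964 and 0.441 RPKM. The values of T cells were thus above those of keratinocytes when both were apart, and below them in co-culture. The same order was seen for Ubd, a ubiquitin-like modifier, at 39.9 and 25.2 RPKM in co-cultured keratinocytes, 1.20 and 0.380 RPKM in co-cultured T cells, 0.226 and 0.631 RPKM in keratinocytes alone and 2.02 and 1.87 RPKM in T cells in medium (log2 fold change between the co-cultured partners 5.21, SE 0.71, adjusted p = 0.0153). Il18bp, a secreted antagonist of IL-18, was at 15.9 and 6.41 RPKM in co-cultured keratinocytes and at 1.11 and 1.14 RPKM in co-cultured T cells, and Phf11d at 12.9 and 7.01 RPKM compared to 1.30 and 0.698 RPKM. For Irf1 the levels of the co-cultured partners overlapped. For Xaf1, an antagonist of inhibitors of apoptosis, they did not overlap, but the difference between the co-cultured partners did not pass the test (17.4 and 19.9 compared to 8.19 and 4.47 RPKM, adjusted p = 0.0827). The count of 7 moved when 1 library was left out, but such a fit has 1 group whose spread is not measured. Dependence on a particular library was not tested. By DESeq2 60 genes rose and 293 fell.

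For all 69 genes that fell, both co-cultured T-cell libraries were above both libraries of T cells in medium (13.9% of all genes tested), in which 45 of them had 0 reads. For 53 genes both co-cultured keratinocyte libraries were also below keratinocytes alone (23.6% of all genes tested). Since the genes were selected by this change, these counts are a description only. The count of 69 was 27 and 29 without either library of T cells in medium, 38 and 45 without T-cell library a or b, and 27 and 19 without library 1 or 2 of keratinocytes alone. Since a fold against 0 reads depends on the prior count, levels are given instead. Calm4, a calmodulin-like protein of the epidermis, was at 146 and 183 RPKM in co-cultured T cells, 0 RPKM in T cells in medium, 9.54 and 8.33 RPKM in co-cultured keratinocytes and 63.4 and 63.0 RPKM in keratinocytes alone. Klk7, a protease of the cornified layer, was at 56.3 and 51.1 RPKM in co-cultured T cells and 10.17 and 13.98 RPKM in co-cultured keratinocytes, compared to 0 RPKM in T cells in medium and 54.0 and 68.7 RPKM in keratinocytes alone. In co-cultured T-cell libraries both genes were thus above the level of co-cultured keratinocytes, while T cells in medium had 0 reads. Calm4 was also above keratinocytes alone there, whereas the levels of Klk7 overlapped with those of keratinocytes alone.

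Transcripts of the cornified layer were found in the T-cell libraries of the co-culture. A list of 49 such genes (the Sprr and Lce families and 12 further genes of the cornified layer) was chosen after these values had been seen and is given as a description. It summed to 1093 and 1339 RPKM in co-cultured T cells, 2588 and 1491 RPKM in co-cultured keratinocytes, 6731 and 6240 RPKM in keratinocytes alone and 0.594 and 1.03 RPKM in T cells in medium. Of 41 tested between the co-cultured partners, 8 were higher in keratinocytes and 9 in T cells, and 13 of the 69 genes that fell were among the 49, whereas 56 were not. Lce3f was at 46.9 and 82.0 RPKM in co-cultured T cells and at 0.323 and 0.298 RPKM in co-cultured keratinocytes, beside 20.5 and 6.25 RPKM in keratinocytes alone and 0 RPKM in T cells in medium. Crct1, which lies in the same epidermal gene cluster, was at 228 and 380 RPKM in co-cultured T cells and 262 and 176 RPKM in co-cultured keratinocytes. Sprr1a, a cornified envelope precursor, was at 429 and 306 RPKM in co-cultured T cells and at 685 and 78.5 RPKM in co-cultured keratinocytes. The 13 keratinocyte markers tested were found in T-cell libraries a and b at a median of 0.606 and 0.170% of the mean of co-cultured keratinocytes, with ranges of 0 to 283% and 0 to 277%. The upper end was Krt10, a keratin of suprabasal layers, which was low in both partners (0.747 and 0 RPKM in keratinocytes and 1.06 and 1.04 RPKM in T cells). Krt5, the partner of KRT14 in basal keratinocytes, was at 4556 and 3812 RPKM in keratinocytes and at 5.74 and 2.38 RPKM in T cells (log2 fold change 9.89, SE 0.88, adjusted p = 0.00882). Which cells contributed the RNA of epidermal genes to the T-cell libraries was not tested.

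**Figure D5:**
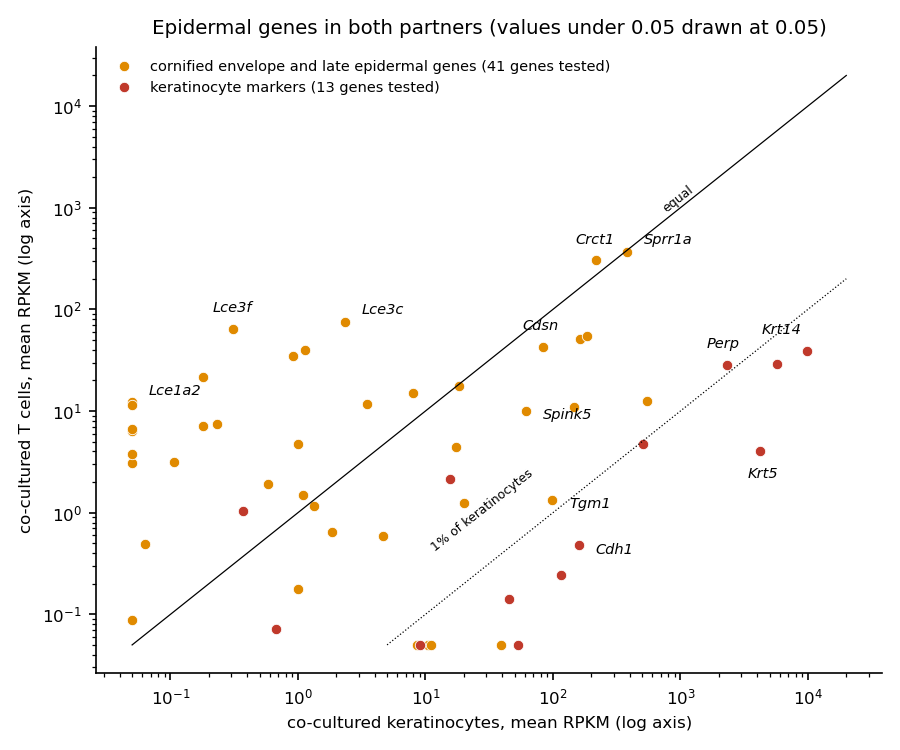
Mean RPKM in co-cultured keratinocytes (horizontal, log axis) and co-cultured T cells (vertical, log axis) of 41 cornified layer genes (orange) and 13 keratinocyte markers (red), 2 libraries a partner, with lines for equal levels and for 1% of the keratinocyte level. Krt5 lies below the line of 1%, whereas Lce3f, Lce3c and Lce1a2 lie above the line of equal levels.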

How the data were processed

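Libraries of poly(A)-selected RNA were made with the NEBNext Ultra II kit and sequenced as single-end reads on a HiSeq2500. The authors aligned the reads to GRCm38 with the CLC Genomics Workbench at its default settings, and the annotation release is not given in the sources used here. The authors deposited for every library and gene raw counts of exon reads, counts of uniquely assigned reads, and RPKM values, in which the exon reads were scaled to exon length and mapped reads. Because the tables use decimal commas, the RPKM columns were read as such. Genes with an exon length of 0 were left out.

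Groups were taken from the sample labels. Exon reads of the 4 co-culture libraries were filtered with filterByExpr, scaled by TMM and tested with edgeR 4.0.16 in R 4.3.3 (glmQLFit, glmQLFTest). A second fit of 8 libraries tested whether the difference between the cell types changed upon co-culture. Genes with an adjusted p under 0.05 were called. RPKM gave levels and summed levels. Where a partner had 0 reads in both libraries, the fold was taken against 3 reads per library and is a lower bound. A level of 1 RPKM in both libraries counted as expressed.

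The members, 161 ligand and receptor pairs and the gene lists were chosen with earlier results of these data known. Named were the markers, a set of genes on which the question of the co-culture turns, up to 6 genes per direction of each list or family (5 or more RPKM), the 10 largest differences per direction (50 or more RPKM), and up to 10 genes per direction of the second fit. Further called members and comparison genes named in the text were chosen after their values were seen. Both fits were recomputed with DESeq2 1.42.0, with scaling to library size only, without a filter, with unique reads, and with each library left out. For the comparison of the partners only, limma 3.58.1 on log2 RPKM values after addition of 1 or 0.1 was also used. The same holds for at least 10 reads in 2 libraries and for all 10 libraries in the fit. A replicate block was used for the second fit only. Pair calls were recounted with DESeq2, unique reads and limma after addition of 1, and pair levels at 5 RPKM. On simulated counts for the comparison of the partners, edgeR recovered 8 of 100 genes changed by 2 and 84 of 99 changed by 4 on the log2 scale, with 4 false calls among 11922, and DESeq2 47 and 94 with 62 false calls. For the second fit edgeR recovered 2 and 45 of 100, with 1 false call. Promoter sequences are those of RefSeq (GRCm38.p6). Tables were made with Python 3.11.15, pandas 2.3.3 and matplotlib 3.10.9. The single-gene values of one gene are not reported here.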

Additional observations from a re-analysis of the deposited data

Results flagged for a closer look

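The effect of the co-culture differed between keratinocytes and T cells by the interaction term of edgeR's quasi-likelihood test with Benjamini-Hochberg adjustment, 2 libraries in each of 4 groups. Given here are 17 genes, the 7 that rose and, of the 69 that fell, the 10 with the largest change at 5 or more RPKM. In favour of keratinocytes, the difference on the log2 scale was 10.28 for Cxcl9 (SE 0.93), 7.53 for Ubd (SE 0.99), 6.50 for Gbp3 (SE 0.88), 5.52 for Il18bp (SE 0.71), 5.37 for Phf11d (SE 0.72), 4.13 for Xaf1 (SE 0.53) and 3.73 for Irf1 (SE 0.54). In the opposite direction, the adjusted p was 0.0113 for Lce3f, 0.00263 for Calm4, 0.00624 for 2310046K23Rik, 0.00604 for Cdsn, 0.00538 for Crct1, 0.00298 for Klk7, 0.0113 for Lce3c, 0.00730 for Klk6, 0.0156 for Sprr1a and 0.0467 for Gsdma. Of the latter, Sprr1a had 0 and 0.144 RPKM in T cells in medium and the other 9 had 0 in both libraries, so that no fold is given.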

How the results depend on the processing

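Of 56 genes called between the partners whose fold change is given, 56 stayed called by DESeq2, both limma fits and without a filter, 51 with library size (not Ctsw, Gbp10, Gzma, Thbs1 and Tnfrsf10b), 54 with unique reads (not Gbp10 and Ifnar2), 55 with all 10 libraries (not Gbp10), 55 with at least 10 reads in 2 libraries (not Ctsw), 27 without T-cell library b and 40 without T-cell library a, and none of 672 values turned its sign. Of 15 genes that were not called, these were called under an alternative that left no library out: B2m, Cd3d, Cxcl10, Ifngr1 and Tnf by DESeq2, B2m, Icam1 and Ifngr1 with all 10 libraries, Cxcl10, Icam1 and Ifngr1 by both limma fits, and B2m, Cd3d, Ifngr1 and Tnf without a filter. Without keratinocyte library 2, which leaves 1 keratinocyte library, the fold changes of B2m, Ccl5, Cd3d, Cxcr3, Ifngr1, Pdcd1, Tnf and Tnfrsf1b were larger. Counts moved more. The genes higher in keratinocytes and in T cells were 2220 and 1087 by DESeq2, 2276 and 901 with all 10 libraries in the fit, and between 411 and 1715 and between 39 and 1017 when 1 library was left out. In T cells they were also 641 and 605 by limma on log2(RPKM + 0.1) and log2(RPKM + 1), and 739 without a filter. The genes that rose or fell upon co-culture were 60 and 293 by DESeq2, 24 and 181 without a filter, and between 1 and 7 and between 19 and 99 with 1 library left out. With a replicate block on the number of the keratinocyte libraries they were 8 and 82, of which 7 and 62 were among those of the fit without it. These numbers are only shared by label, over 2 pairs, and the deviations of same-numbered libraries correlated with r = 0.646 over 13202 genes. No paired analysis of the partners was possible because the co-cultured T-cell libraries carry no number. Pairs with the ligand higher in keratinocytes and the receptor in T cells were 7 by DESeq2, those in the opposite direction 1 by DESeq2 and 1 by limma, and pairs with both genes higher in keratinocytes 14 by DESeq2 and 2 by limma. At 5 RPKM instead of 1 RPKM, 23 and 10 pairs were expressed in the 2 directions. Fold changes near 0 turned their sign. That of Irf1 was 0.0323 with all libraries, 0.0380 with library size, 0.11 and 0.10 by limma with 0.1 and 1 added, and -0.26 to 0.15 with 1 library left out. That of Cd274 was -0.00135 with unique reads and -0.16 to 0.18 with 1 library left out, that of Ccl5 -2.61 to 0.0213, and that of Ifng -2.10 to 0.22. The cause was not tested. With 2 libraries a group, changes of 2 on the log2 scale were mostly missed by edgeR in the simulation. Its rates do not carry over to these data, in which far more genes differed, but a gene that was not called cannot be taken as equal.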
